A study of Zea mays with 33 samples.

Results

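The genes adh1 (Zm00001d033931) and pdc3 (Zm00001d028759) each code for an enzyme of ethanolic fermentation in maize. They are 2 of the 46430 features in the count files and were chosen by gene ID. Pyruvate decarboxylase, the product of pdc3, splits pyruvate into acetaldehyde and carbon dioxide. Alcohol dehydrogenase, the product of adh1, then reduces the acetaldehyde to ethanol and returns NAD+ to glycolysis, which lets glycolysis go on when oxygen is short. In maize, adh1 is a classic gene of the anaerobic response of the root, and it is also known for its activity in the seed and in pollen. The files give IDs without names, and the names adh1 and pdc3 are used as they were assigned to these IDs. Other fermentation genes of maize could not be tied to IDs and were not examined.

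Reads were counted in 33 RNA-seq libraries of wild type plants of the inbred line B73, with 3 libraries from each of 11 tissues. All sample titles carry the code WW, which the labels do not explain, and every comparison here is between tissues or stages. Roots (DAS4_R) and hypocotyls (DAS4_HY) came from seedlings harvested at 4 days after sowing, grown in perlite and shaded from direct light, each library being a pool of 3 seedlings. Greenhouse plants grown in a clay and compost mixture gave the immature (V2_LF-I) and the expanded (V2_LF) leaf of V2 seedlings. Greenhouse plants at pollen shed gave the leaf blade (PS_LF), the internode that bears the ear (PS_IN1), the silk (PS_SILK), the tassel (PS_TAS) and the ear (PS_EAR). Field plants gave seeds, labelled as 12 days (DAP12_S) and 35 days (DAP35_S) after pollination, with the seeds of 1 ear per library. For the younger seed the written methods of the study give a later day than the labels do. The growth conditions of seeds, seedling organs and greenhouse organs differ, and between them the tissue and the condition cannot be told apart. RNA of the older seed was also extracted by another method than that of the other tissues.

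The libraries held 15.8 to 42.9 M reads on genes, and the TMM factors that scale them ran from 0.479 to 1.48, lowest in V2_LF and highest in PS_EAR. Levels are given as CPM, which relates the count of a gene to the scaled total of its library. Libraries of a tissue came from separate plants, pools or ears. The p-values for levels between tissues rest on the spread between libraries of a tissue. This spread was estimated over all 11 tissues in 1 fit, and not from the tissues compared alone. In whole organs, fewer cells that express a gene and less RNA per cell cannot be told apart. The labelled tissues could not be checked against marker genes, whose symbols could not be tied to the IDs of the files.

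Both genes were detected in all 33 libraries. They were highest in roots and seeds and lowest in green leaf blades, with the expanded V2 leaf far below all other tissues. The mean of adh1 differed 96.8-fold between its highest and its lowest tissue, and that of pdc3 differed 129.6-fold. These ranges depended on the scaling. Without scaling of the library sizes they were wider, from 6.13 CPM in V2_LF to 1635 CPM in roots for adh1 and from 1.93 to 670 CPM for pdc3. On the log2 CPM scale the tissue means spanned 6.58 for adh1 and 7.02 for pdc3, against a median span of 3.84 over the 28997 genes tested, and 78.1% and 81.4% of these genes spanned less than adh1 and pdc3. Their spread between libraries of a tissue, an SD of 0.24 log2 for adh1 and 0.30 log2 for pdc3, was under the median of 0.34 log2 over all genes. Of these genes, 34.0% had a smaller SD than adh1 and 45.7% a smaller SD than pdc3.

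The roots held the highest mean of adh1. Its level was 1470, 997 and 1234 CPM in the 3 root libraries, a mean of 1234 ± 237 CPM (SD, n = 3 here and for all tissue means below). Against the mean of the other 10 tissues, taken on the log2 scale, adh1 was higher in roots by 2.57 ± 0.12 log2 (SE, adjusted p = 2.9e-16). Libraries of both seed stages reached into the range of the root libraries. The level of pdc3 in roots was 534, 448 and 531 CPM, a mean of 504 ± 48.5 CPM. This was higher than the mean of the other tissues by 2.96 ± 0.13 log2 (adjusted p = 2.2e-16). A call in such a comparison needs an adjusted p under 0.05 and a log2 change beyond 2, and both genes passed it in roots, as did 14.7% of all genes tested in the same direction.

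Seeds held both genes at high levels, close to those of roots except for pdc3 in the younger seed. In DAP12_S, adh1 stood at 939, 1052 and 1203 CPM, with a mean of 1065 ± 132 CPM. In DAP35_S it stood at 853, 965 and 1040 CPM, with a mean of 953 ± 94.1 CPM. The 2 stages overlapped for adh1. The level of pdc3 was 271, 271 and 318 CPM in DAP12_S, with a mean of 286 ± 27.0 CPM. In DAP35_S it was 478, 527 and 561 CPM, with a mean of 522 ± 41.8 CPM, the highest mean of pdc3 in any tissue. No library of DAP12_S overlapped with the older seed or with roots for pdc3, and roots stood 0.82 ± 0.23 log2 over DAP12_S (adjusted p = 0.0038). Both genes passed the call as higher than the mean of the other tissues in DAP12_S, where 8.35% of all genes did, with changes of 2.33 ± 0.12 log2 for adh1 and 2.07 ± 0.14 log2 for pdc3 (adjusted p of 5.1e-15 and 1.8e-12). The call of pdc3 ended without replicate 3 of DAP12_S, when the change was 1.99 log2. Both passed it in DAP35_S too, with 9.93% of all genes, at 2.16 ± 0.12 log2 for adh1 and 3.02 ± 0.13 log2 for pdc3 (adjusted p of 2.2e-14 and 1.3e-16). Without scaling of the library sizes, adh1 in DAP35_S was 1.93 log2 above the other tissues, just short of the threshold.

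In the silk the 2 genes held different places among the tissues. Its libraries held adh1 at 952, 822 and 794 CPM, with a mean of 856 ± 84.6 CPM. The first of these lay within the range of the older seed and the others below it. The same libraries held pdc3 at 94.5, 87.5 and 94.2 CPM, with a mean of 92.1 ± 3.96 CPM, within the ranges of the internode and the hypocotyl and below every library of the ear. Against the mean of the other tissues, adh1 in silk came to 1.99 ± 0.12 log2 (adjusted p = 1.4e-13), which missed the threshold of 2 by little, and pdc3 to 0.27 ± 0.17 log2 (adjusted p = 0.19). Without scaling of the library sizes adh1 passed it, at 2.04 log2, and it also passed without replicate 2 of the internode (2.01), replicate 1 of the adult blade (2.01), or replicate 2 (2.02) or 3 (2.04) of the silk.

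**Figure D1:**
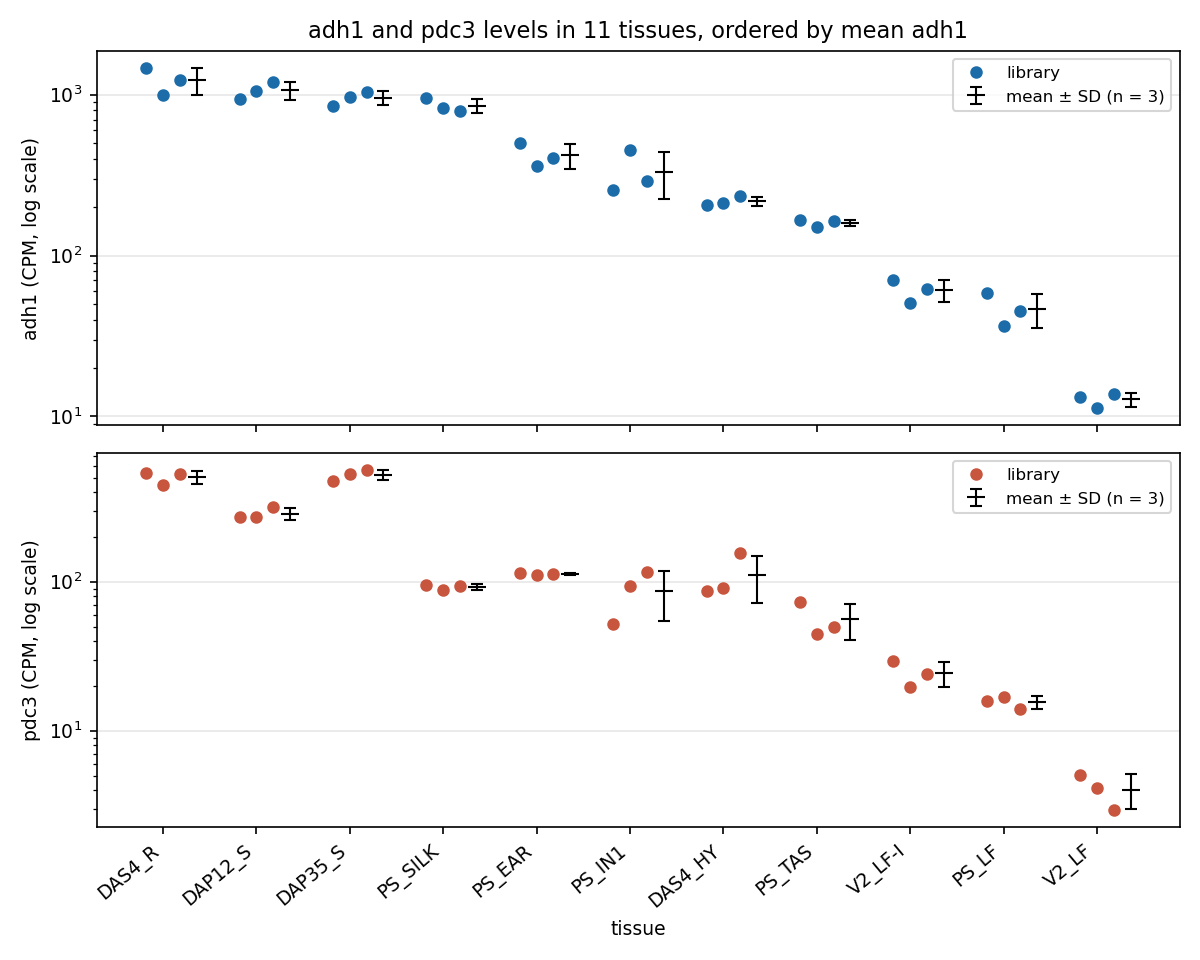
Levels of adh1 (upper panel) and pdc3 (lower panel) in CPM on log scales, for 3 libraries in each of 11 tissues ordered by mean adh1; points are libraries, and the bar beside them is the mean with its SD (n = 3). The silk stands among the high tissues for adh1 (856 CPM) and among the middle ones for pdc3 (92.1 CPM), and V2_LF is lowest for both (12.7 and 4.03 CPM).

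A middle group of tissues held adh1 between 151 and 498 CPM and pdc3 between 44.7 and 155 CPM in single libraries. The ear (PS_EAR) had 498, 358 and 402 CPM of adh1 and 114, 110.4 and 113 CPM of pdc3. For pdc3 this was a narrow spread, with an SD of 1.87 CPM about a mean of 113 CPM. The internode (PS_IN1) had 255, 455 and 290 CPM of adh1 and 52.1, 93.1 and 115 CPM of pdc3. Its libraries lay far apart and did not rank alike for the 2 genes. The hypocotyl (DAS4_HY) had 206, 212 and 235 CPM of adh1 and 86.9, 90.6 and 155 CPM of pdc3, so that replicate 3 stood apart for pdc3 but hardly for adh1. The tassel (PS_TAS), which carries pollen, had 165, 151 and 163 CPM of adh1 and 73.5, 44.7 and 49.6 CPM of pdc3. None of these tissues passed the call against the mean of the others for either gene. Their log2 differences for adh1 were 0.85 ± 0.14 in the ear, 0.49 ± 0.14 in the internode, -0.19 ± 0.15 in the hypocotyl and -0.68 ± 0.16 in the tassel. For pdc3 they were 0.58 ± 0.16 in the ear, 0.17 ± 0.17 in the internode, 0.56 ± 0.16 in the hypocotyl and -0.53 ± 0.18 in the tassel. The sign of the hypocotyl for adh1 turned to 0.26 log2 without scaling of the library sizes, and the sign of the internode for pdc3 turned to -0.088 log2 without its replicate 3. Single libraries also weighed on other values. Without replicate 3 of the hypocotyl its difference for pdc3 was 0.25 log2 (adjusted p = 0.26), and without replicate 2 of the internode its difference for adh1 was 0.19 log2 (adjusted p = 0.34). For pdc3 in the tassel the difference was -0.39 and -0.45 log2 without its replicate 2 or 3 (adjusted p of 0.11 and 0.079).

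Leaves held the least of both transcripts. In the immature V2 leaf (V2_LF-I), adh1 was at 70.4, 50.9 and 62.2 CPM and pdc3 at 29.2, 19.8 and 23.9 CPM. In the adult blade (PS_LF), adh1 was at 58.9, 36.7 and 45.0 CPM and pdc3 at 15.9, 16.8 and 13.9 CPM. In the expanded V2 leaf (V2_LF), adh1 was at 13.2, 11.2 and 13.8 CPM, from 123 to 132 reads a library. There pdc3 was at 5.04, 4.11 and 2.92 CPM, from 28 to 50 reads, and the exact 95% interval for counting error of the library with the fewest reads ran from 1.94 to 4.22 CPM. All 30 libraries of the other tissues lay above V2_LF for both genes. In V2_LF both genes passed the call as lower, with 12.6% of all genes, by -4.69 ± 0.22 log2 for adh1 and -4.70 ± 0.26 log2 for pdc3 (adjusted p of 8.2e-17 and 5.8e-15). In PS_LF both passed it, with 11.2% of all genes, at -2.62 ± 0.19 log2 for adh1 and -2.56 ± 0.22 log2 for pdc3 (adjusted p of 1.3e-12 and 5.4e-11). In V2_LF-I, where 4.28% of all genes passed as lower, adh1 did so at -2.20 ± 0.18 log2 (adjusted p = 3.1e-11), and pdc3 stayed short of the threshold at -1.85 ± 0.20 log2 (adjusted p = 1.1e-08).

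By its means, adh1 ranked roots, DAP12_S, DAP35_S, silk, ear, internode, hypocotyl, tassel, immature V2 leaf, adult blade and expanded V2 leaf. Neighbours in this order with an adjusted p over 0.05 began with roots and DAP12_S (0.21 ± 0.20 log2, adjusted p = 0.37). Next came DAP12_S and DAP35_S, and DAP35_S and silk (0.16 ± 0.20 log2, adjusted p = 0.52). The last were ear and internode (0.33 ± 0.20 log2, adjusted p = 0.15), and immature V2 leaf and adult blade (0.38 ± 0.20 log2, adjusted p = 0.092). The first 4 tissues together held 76.7% of the sum of the 11 tissue means. A step of 1.03 ± 0.20 log2 followed, silk over ear (adjusted p = 1.0e-04). For pdc3 the order was DAP35_S, roots, DAP12_S, ear, hypocotyl, silk, internode, tassel, immature V2 leaf, adult blade and expanded V2 leaf. Here the neighbours with an adjusted p over 0.05 were DAP35_S and roots (0.05 ± 0.23 log2, adjusted p = 0.87) and ear and hypocotyl (0.02 ± 0.23 log2, adjusted p = 0.98). So were hypocotyl and silk (0.27 ± 0.23 log2, adjusted p = 0.33) and silk and internode (0.08 ± 0.23 log2, adjusted p = 0.81). The high group of pdc3 ended with DAP12_S, which stood 1.35 ± 0.23 log2 over the ear. The 4 lowest tissues came in the same order for both genes. Without scaling of the library sizes, silk passed DAP35_S for adh1. For pdc3, roots passed DAP35_S and the internode passed silk. In each case these were neighbours with an adjusted p over 0.05 with TMM. Over all 55 pairs of tissues, each gene had an adjusted p under 0.05 in 48 pairs, where 42.8% to 73.9% of all genes did in a single pair.

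Across tissues the levels of the 2 genes went together. On the log2 CPM scale, Pearson's r between adh1 and pdc3 was 0.95 and Spearman's rho 0.94 over the 33 libraries, and r was 0.93 without the 2 libraries farthest from the median of adh1, both of V2_LF. Over the 11 tissue means, r was 0.96 and rho 0.93, and r was 0.89 without V2_LF and PS_LF. The points share libraries and scaling factors, so that these values are a description. Within tissues the relation was looser, since the deviations of the 33 libraries from their tissue means had an r of 0.38 and a rho of 0.46.

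**Figure D2:**
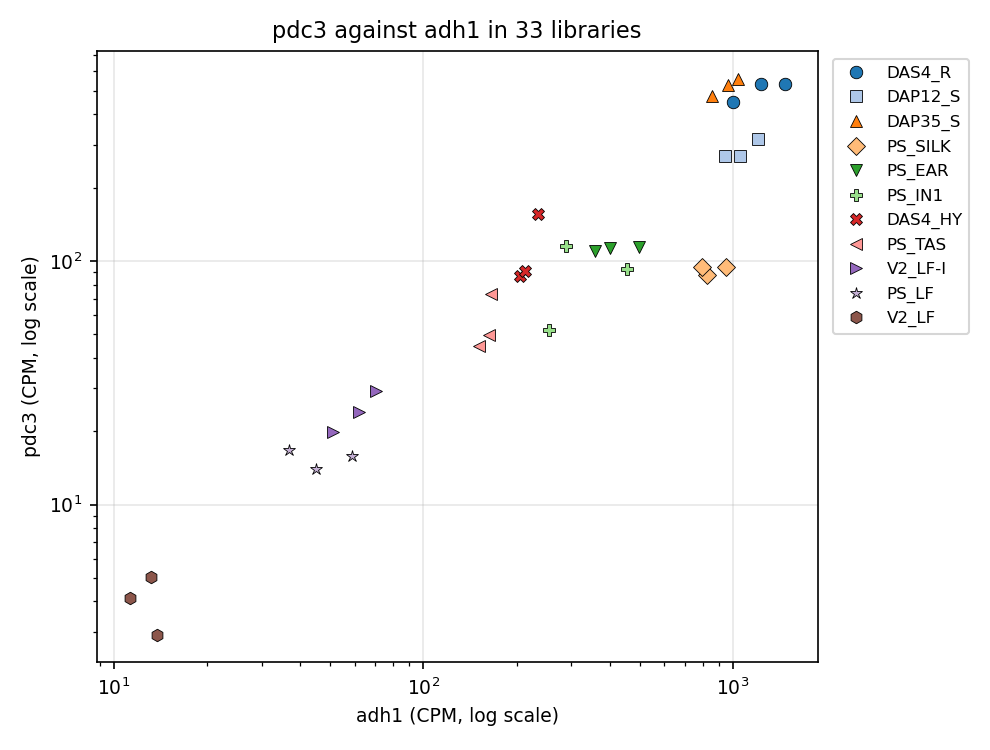
pdc3 (CPM, log scale) against adh1 (CPM, log scale) in the 33 libraries, with a symbol for each of the 11 tissues and a point for each library. The libraries run along a diagonal from V2_LF to roots and seeds, and the 3 silk libraries lie below it, with 87.5 to 94.5 CPM of pdc3 at 794 to 952 CPM of adh1.

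Among the 21288 genes whose highest tissue mean reached 10 CPM, pdc3 was the fourth in likeness to adh1, and adh1 the fifth in likeness to pdc3, by Pearson's r of the log2 tissue means. The genes nearest to adh1 were Zm00001d016972 (r = 0.97), Zm00001d044757 (0.96), Zm00001d027392 (0.96), pdc3 (0.96) and Zm00001d049409 (0.95). Of these, Zm00001d049409 was itself abundant, with a mean of 1034 CPM in DAP12_S, its highest tissue, and 198 CPM in V2_LF. The genes nearest to pdc3 were Zm00001d039166, Zm00001d045102, Zm00001d003655, Zm00001d001869 and adh1, all at r = 0.96. Zm00001d039166 had its highest mean in DAP35_S, 116 CPM, and its lowest in V2_LF, 1.83 CPM. All of the genes named here were lowest in V2_LF. An r over 0.9 was found for 74 genes with adh1 and for 90 with pdc3, and an r under -0.9 for 802 and 728 genes.

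The number of pdc3 reads per 100 adh1 reads in a library does not depend on the size of the library. It mixes the lengths of the 2 transcripts, so that it can be compared between tissues but says nothing of the molar ratio. It averaged 54.8 ± 1.06 in DAP35_S, 50.4 ± 13.7 in the hypocotyl, 41.4 ± 4.55 in roots and 39.6 ± 1.60 in the immature V2 leaf. The mean of the hypocotyl rested on replicate 3, at 66.2, since the other libraries stood at 42.3 and 42.7. It averaged 34.8 ± 8.36 in the tassel, 34.5 ± 9.89 in the adult blade and 32.0 ± 9.37 in the expanded V2 leaf. It averaged 27.3 ± 4.07 in the ear, 27.0 ± 1.61 in DAP12_S and 26.9 ± 11.2 in the internode. The silk was far below, at 9.93, 10.7 and 11.9 in its libraries, with a mean of 10.8 ± 0.979, and the lowest library of another tissue, in the internode, was at 20.5. Over tissue means the ratio moved 5.08-fold, from a mean log2 ratio of -0.87 in DAP35_S to -3.21 in the silk. The tissue means of the levels spanned 6.58 log2 for adh1 and 7.02 log2 for pdc3.

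**Figure D3:**
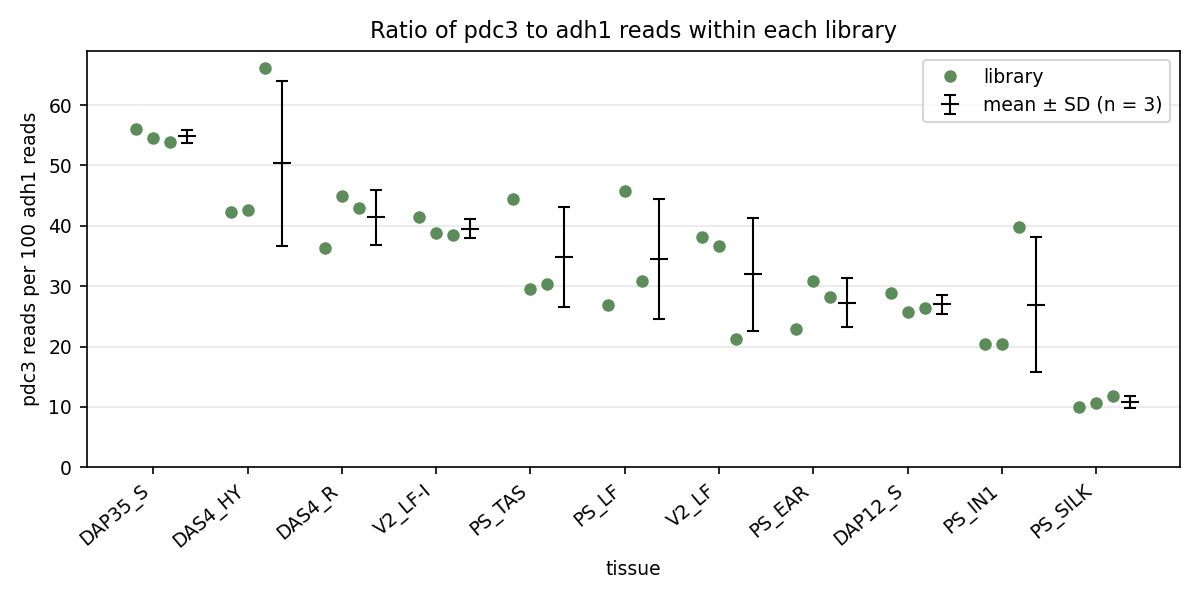
Reads of pdc3 per 100 reads of adh1 in each library, by tissue, ordered by the mean; points are libraries and the bar beside them is the mean with its SD (n = 3). The silk libraries lie at 9.93 to 11.9, under every other library, and DAP35_S lies at 53.9 to 56.0, above DAP12_S at 25.8 to 28.8.

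In 8 pairs of tissues of like organ, stage or sequence, a call needed an adjusted p under 0.05 and a log2 change beyond 1. The same pairs were tested for the log2 ratio of pdc3 to adh1 by an exact two-sided permutation test, in which 3 against 3 libraries can give no p under 0.1, and p-values were adjusted over the 8 pairs.

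Between the organs of the seedling, both genes were higher in roots than in hypocotyls, by 2.50 ± 0.21 log2 for adh1 and by 2.18 ± 0.24 log2 for pdc3 (adjusted p of 2.0e-10 and 3.4e-08). This was 5.67-fold and 4.55-fold, with no overlap of libraries, and 12.6% of all genes were called higher. The ratio of the 2 genes differed by -0.26 log2 between roots and hypocotyls (exact p = 0.6, adjusted p = 0.80), with overlap, and by -0.042 log2 without replicate 3 of the hypocotyl.

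Between leaves, the immature V2 leaf was above the expanded V2 leaf by 2.26 ± 0.21 log2 for adh1 and 2.59 ± 0.27 log2 for pdc3 (adjusted p of 5.6e-10 and 3.4e-09), a contrast in which 26.9% of all genes were called higher. The adult blade too was above the expanded V2 leaf, by 1.88 ± 0.21 log2 for adh1 and 1.94 ± 0.27 log2 for pdc3 (adjusted p of 6.5e-08 and 1.4e-06), with 12.8% of all genes. No library of the adult blade overlapped with the expanded V2 leaf for either gene. The ratio differed by 0.35 log2 between the immature and the expanded V2 leaf (exact p = 0.1, adjusted p = 0.27) without overlap, and by 0.12 log2 between the adult blade and the expanded V2 leaf (exact p = 0.7, adjusted p = 0.80) with overlap. Without replicate 3 of V2_LF, which had the fewest pdc3 reads, these differences were 0.081 and -0.15 log2.

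On the adult plant, the internode was above the leaf blade by 2.83 ± 0.21 log2 for adh1 and 2.48 ± 0.25 log2 for pdc3 (adjusted p of 1.1e-11 and 2.1e-09), where 21.6% of all genes were called higher. For the ratio the difference was -0.40 log2 (exact p = 0.3, adjusted p = 0.48).

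The tassel was below the ear by -1.39 ± 0.20 log2 for adh1 and by -1.01 ± 0.23 log2 for pdc3 (adjusted p of 8.2e-07 and 4.0e-04), and 23.5% of all genes were called lower. For pdc3 the change lay on the threshold, and the call ended at -0.88 log2 with another scaling of the libraries and at -0.87 and -0.93 log2 without replicate 2 or 3 of the tassel. The ratio was 0.34 log2 higher in the tassel than in the ear, with overlap (exact p = 0.3, adjusted p = 0.48). The tassel was also below the silk for adh1, by -2.42 ± 0.21 log2 (adjusted p = 1.1e-10), where 20.4% of all genes were called lower. For pdc3 the difference of tassel and silk was -0.72 ± 0.23 log2 (adjusted p = 0.0080), short of the fold threshold though the libraries did not overlap. Without scaling it was called, at -1.38 log2. The ratio differed between tassel and silk by 1.67 log2, the largest difference of the 8 pairs, and no tassel library overlapped a silk library (exact p = 0.1, adjusted p = 0.27).

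From ear to seed, DAP12_S was above the unpollinated ear by 1.34 ± 0.20 log2 for adh1 and 1.35 ± 0.23 log2 for pdc3 (adjusted p of 3.4e-06 and 2.6e-05), with 14.3% of all genes called higher. The 2 changes were nearly equal, and the ratio differed by -0.01 log2 (exact p = 1). Between the stages of the seed the genes went apart. In DAP35_S against DAP12_S the difference of adh1 was -0.16 ± 0.20 log2 (adjusted p = 0.55) with overlap, whereas that of pdc3 was 0.87 ± 0.23 log2 (adjusted p = 0.0036), 1.82-fold without overlap, though under the fold threshold of a call. These values depended on the scaling of the library sizes, without which adh1 differed by -0.77 log2 (adjusted p = 0.0025) and pdc3 by 0.25 log2 (adjusted p = 0.36). The ratio is free of the scaling. It was 1.02 ± 0.05 log2 higher in DAP35_S than in DAP12_S, without overlap (exact p = 0.1, adjusted p = 0.27). The other extraction of RNA in the older seed moves with this difference, and its part was not tested.

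**Figure D4:**
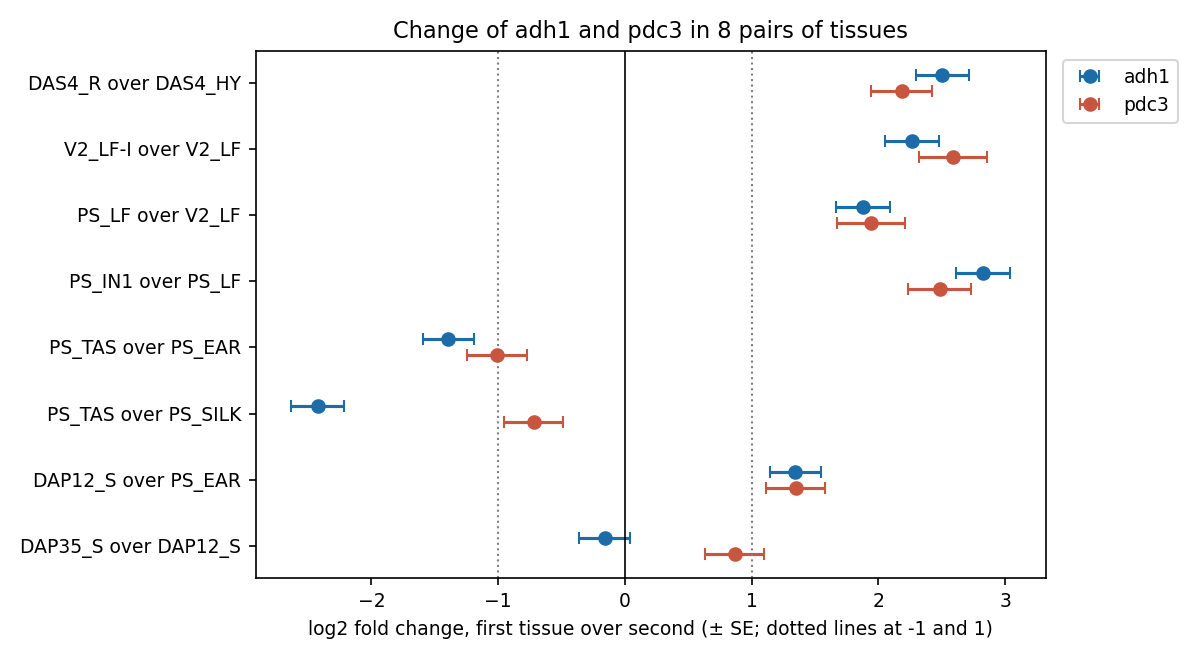
Log2 fold changes of adh1 and pdc3 with their SE in the 8 pairs of tissues, the first-named tissue over the second (n = 3 each); dotted lines mark the threshold of 1 in either direction. The genes lie close together except for tassel over silk (-2.42 for adh1 and -0.72 for pdc3) and DAP35_S over DAP12_S (-0.16 and 0.87).

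In 4 tissues of pollen shed, replicates 2 and 3 were harvested on 28 November and replicate 1 on 25 November. With the tissue as a covariate, the difference of 28 over 25 November was -0.12 ± 0.18 log2 for adh1 (adjusted p = 0.84) and 0.05 ± 0.21 log2 for pdc3 (adjusted p = 0.95), from 8 and 4 libraries. The labels give no date for the silk.

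Genes of neighbouring pathways were counted from 3 lists in the part at hand of the gene annotation that accompanied the study. That annotation covers genes of the study's regulatory modules for husk and young leaf, so that the lists need not hold a whole pathway. It holds neither adh1 nor pdc3. The lists were response to hypoxia, with 10 of 12 genes tested, glycolytic process, with 18 of 23, and sucrose synthase activity, with 6 of 6. In roots, set against the mean of the others, 5 glycolytic genes were called higher and 0 lower, with a median of 0.09 log2 beside 0.10 log2 over all genes, of which 14.7% were called higher and 6.11% lower. The most abundant of these 5, Zm00001d028550, was at a mean of 140 CPM in roots against 35.9 CPM in the other tissues (2.24 ± 0.10 log2, adjusted p = 3.0e-16). The most abundant glycolytic gene tested, Zm00001d002690, was at 923 CPM in roots and was not called there (0.25 ± 0.17 log2, adjusted p = 0.23). Its highest mean was in V2_LF, at 2644 CPM, and its r over the tissue means was -0.69 with adh1 and -0.80 with pdc3. Of the hypoxia genes 1 was called higher in roots and 0 lower, and of the sucrose synthase genes 2 and 0, to be read against the same shares of all genes. In DAP35_S, 1 glycolytic gene was called higher and 1 lower, while the hypoxia and sucrose synthase lists had no call, beside 9.93% of all genes called higher and 8.09% lower. In V2_LF, where both fermentation genes were lowest, 0 glycolytic genes were called higher and 1 lower, 1 hypoxia gene higher and 2 lower, and no sucrose synthase gene in either direction, beside 14.9% of all genes called higher and 12.6% lower. Of the 6 sucrose synthase genes, 2 were at 0 CPM in V2_LF, Zm00001d008792 and Zm00001d018422. Both were also at 0 CPM in PS_LF, and outside roots their highest means were 0.20 and 0.097 CPM, in the hypocotyl. They are the 2 genes called higher in roots, at 1.03 and 19.6 CPM, so that their absence was not particular to V2_LF. In V2_LF their SE against the other tissues was far larger than their change, so that they could not be called lower. The same held in roots for the glycolytic gene Zm00001d042754, at 0.050 CPM against 2.53 CPM in the others. In roots over hypocotyls it was at -5.83 ± 0.59 log2 (adjusted p = 1.4e-08). The counts of listed genes called lower may therefore be too small. The gene of these lists whose tissue means were most like adh1 was Zm00001d012061, annotated for sucrose synthase activity, with an r of 0.83 over 11 tissues and a highest mean of 61.8 CPM in DAP12_S.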

How the data were processed

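The authors aligned reads to B73 RefGen_v4 with STAR, and the deposited files hold raw counts of reads per gene, of which the reverse strand column was used. The version of STAR is not given in the sources used here. Lines that name no gene (a median of 12.1% of reads) were left out. STAR counts only reads that map to 1 place, and whether adh1 or pdc3 share reads with near copies was not tested. Counts were scaled by TMM and tested with edgeR 4.0.16 (R 4.3.3) by the quasi-likelihood test in 1 fit of 33 libraries with a group per tissue, after filterByExpr (minimum count 10, minimum total 15), with Benjamini-Hochberg adjustment over 28997 genes. The tests were first run on simulated data in which few genes changed, so that this run does not check the scaling of the libraries.

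The members, lists and pairs were chosen with earlier results of these data known. Named genes were the members, the 5 genes most like each by the correlation of tissue means, and up to 3 genes in each direction of the 3 annotated lists. Lists and cell type markers given by symbol could not be tied to IDs: the RefSeq table (NAM-5.0) matched 0 of 44146 nuclear IDs, so that no position or sequence is given. Libraries with the same number deviated together, with every correlation over 0.1, only in tassel and silk (0.12 to 0.19). Alternatives were RLE size factors, no scaling, no filter, the unstranded column, DESeq2 1.42.0, a replicate block, fits of the pair alone and leaving out each library.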

Additional observations from a re-analysis of the deposited data

Results flagged for a closer look

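In the 4 tissues harvested on 2 days, the libraries of 28 November did not all lie on the same side of that of 25 November. For adh1 both later libraries were higher in the internode, by a mean of 0.55 log2, and both were lower in the ear (-0.39 log2), the adult blade (-0.53 log2) and the tassel (-0.074 log2). For pdc3 both were higher in the internode, by 1.00 log2, and both lower in the tassel (-0.64 log2) and, by little, in the ear (-0.025 log2). The test of the interaction of date and tissue gave an edgeR adjusted p of 0.56 for adh1 and 0.15 for pdc3, so that neither difference between tissues passed the threshold, and each tissue had 1 library of 25 November.

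Reads were also counted on the strand opposite to the genes. They came to at most 30 in a library for adh1 (DAP12_S replicate 3) and 10 for pdc3 (DAS4_R replicate 2). Summed over the 33 libraries they were 289 for adh1 and 87 for pdc3, which is 0.0539% and 0.0488% of the sense reads, against 0.9003% to 4.33% over all genes of a library.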

How the results depend on the processing

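Of 42 results, 41 were scored as the same with RLE size factors and with DESeq2. For the tests this means the same direction and call. The counts of pairs of tissues given below are among the 42 and were scored only by being near the main count. The exception was pdc3 in tassel over ear, at -0.88 log2 with both. Without scaling, the median of all genes in V2_LF against the other tissues was -1.38 log2, beside -0.27 log2 with TMM, adh1 in the hypocotyl against the others turned to 0.26 log2, adh1 in the silk became 2.04 log2 and in DAP35_S 1.93 log2, and pdc3 in tassel over silk became -1.38 log2. For DAP35_S over DAP12_S, no scaling gave -0.77 log2 for adh1 (adjusted p = 0.0025) and 0.25 log2 for pdc3 (adjusted p = 0.36). No call changed without the filter, with the unstranded column, in fits of a pair alone, or with the replicate block (for adh1 in roots over hypocotyls 2.49 log2). In counts of pairs with an adjusted p under 0.05, chosen after seeing the data, adh1 had 47 to 51 and pdc3 47 to 52 of 55 under the alternatives, beside 48.

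When each library was left out, pdc3 in DAP12_S against the others ran from 1.99 to 2.11 log2, adh1 in silk from 1.90 to 2.04, pdc3 in the internode from -0.088 to 0.43, and pdc3 in tassel over ear from -1.22 to -0.87. The call of adh1 in silk was made without replicate 2 of the internode (2.01), replicate 1 of the adult blade (2.01), or replicate 2 (2.02) or 3 (2.04) of the silk. The log2 ratio ran from -0.15 to 0.28 in adult blade over expanded V2 leaf, from -0.13 to 0.087 in DAP12_S over ear, from -0.72 to -0.18 in internode over adult blade, from 0.15 to 0.44 in tassel over ear, and from 0.081 to 0.50 in immature over expanded V2 leaf. The date difference of pdc3, left-out libraries also being chosen after seeing the data, ran from -0.23 to 0.27 log2. With 28 to 50 reads of pdc3 in V2_LF, counting error limits its ratio there.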
